A study of Rattus norvegicus with 12 samples.

Results

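The protein genes of the cytosolic ribosome were followed in rats at days 2, 4 and 7 of a thermal injury, as ratios of RNA from injured to RNA from sham-treated animals. They were taken as the probe sets whose single gene symbol begins with Rpl, Rplp or Rps and a number, or is Rpsa, with the Rps6k kinases left out. This gave 50 of 15866 probe sets on the Affymetrix RAE230A array, for 44 genes, with 33 probe sets of the large subunit and 17 of the small subunit. A further 28 probe sets carry several symbols that all follow the same naming rule, and these are given as a group without names. Each of the 9 samples, 3 per day, pairs a thermal injury channel with a sham channel. The labels name no tissue, strain, sex or age, give no extent of the burn, and do not say whether samples came from separate animals, so p-values measure only the spread between these samples, which may be technical. The ratio is read as injury over sham because the labels put injury in channel 2. Its order is not stated, so that direction is likely but not settled, and all signs depend on it. The 3 samples of day 1 were left out because their identifiers do not stand for the same probe sets: the rank correlation of their signals with those of the other days was between 0.00769 and 0.0296, against 0.716 to 0.761 among days 2, 4 and 7.

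The cytosolic ribosome is built from a large and a small subunit, each a core of ribosomal RNA held by many small basic proteins. Their messages are among the most abundant of a cell, and most begin with a C followed by a tract of pyrimidines, the 5′ terminal oligopyrimidine (TOP) motif, through which mTOR signalling controls their translation. Ribosome production is known to follow growth and the supply of nutrients.

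Of the 44 genes, 39 had an entry in the RefSeq promoter table of build GRCr8, which gives 250 bases before and 50 after the annotated start. An unbroken run of at least 8 bases of C and T on the sense strand, within 25 bases of the start on either side, was present in 28 of these 39 (71.8%), against 19.4% of all 33469 promoters of that length. The median longest run was 10 bases in the members and 5 in all promoters. The ETS motif CCGGAAG on either strand of the 300 bases was in 9 of 39 (23.1%, against 8.75% of all), the YY1 motif AAGATGGCG in 3 (7.69%, against 1.73%) and TATAAA in 6 (15.4%, against 14.2%). The windows below run from 35 bases before to 25 bases after the annotated start, with capitals for the longest C and T run found within 25 bases of the start, where runs are cut at the ends of that stretch. Rps28, Rps15, Rpl35a and Rps3 are shown as members with high ratios at day 4, Rpl19 and Rpl26 as members with low ratios at day 7, Rplp0 as the steadiest member and Rpl39 as a member that went the other way.
Rps28, chr7:15311309-15311368 (- strand): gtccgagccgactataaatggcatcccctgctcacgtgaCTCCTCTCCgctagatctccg
Rps15, chr7:10068091-10068150 (- strand): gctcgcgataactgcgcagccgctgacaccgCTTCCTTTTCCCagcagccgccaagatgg
Rpl35a, chr11:81234997-81235056 (- strand): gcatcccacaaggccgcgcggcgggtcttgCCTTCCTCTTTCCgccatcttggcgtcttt
Rps3, chr1:163195752-163195811 (- strand): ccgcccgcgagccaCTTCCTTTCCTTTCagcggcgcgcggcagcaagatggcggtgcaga
Rpl19, chr10:83519029-83519088 (+ strand): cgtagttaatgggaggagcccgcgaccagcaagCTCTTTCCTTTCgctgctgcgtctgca
Rpl26, chr10:54109657-54109716 (+ strand): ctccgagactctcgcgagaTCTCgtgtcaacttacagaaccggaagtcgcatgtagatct
Rplp0, chr12:46718366-46718425 (- strand): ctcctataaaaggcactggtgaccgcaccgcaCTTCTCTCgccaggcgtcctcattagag
Rpl39, chrX:121195872-121195931 (- strand): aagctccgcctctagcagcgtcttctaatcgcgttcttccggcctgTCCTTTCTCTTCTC
In Rplp0 the run has 8 bases and begins 3 bases before the annotated start, and in Rps28 it has 9. That of Rpl26 is the 4-base TCTC, and a lower-case ctctc further upstream begins outside the stretch searched. Members with a run of at least 8 bases (32 probe sets) had a median log2 ratio of 0.29 at day 4 and -0.16 at day 7, and the 12 probe sets with a shorter run had 0.25 and -0.14. These are descriptions of letters near an annotated start, and the start itself may be some bases off.

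Before the ratios are given, the strength of the signals matters. Whole numbers whose quotient equals the deposited ratio were searched for in each sample, which succeeds for weak signals and fails for strong ones, and a probe set was called dim when both numbers were at most 3000 in at least 5 of the 9 samples. By this measure 6 of 50 members (12%) were dim, against 65.3% of all probe sets, and 37 members lay beyond the range of the search, as did 6.4% of all. The 6 dim probe sets were those of Rpl3l, Rpl30, Rpl39 and Rps4y2 and the weaker probe sets of Rpl14 and Rps24. Rpl39 was just inside the class with 5 of 9 samples and Rps27l just outside it with 4. The spread of the dim members was wide: the median SD within a day was 0.77 on the log2 scale, against 0.23 for the 44 bright members and 0.41 for all probe sets.

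**Figure D1:**
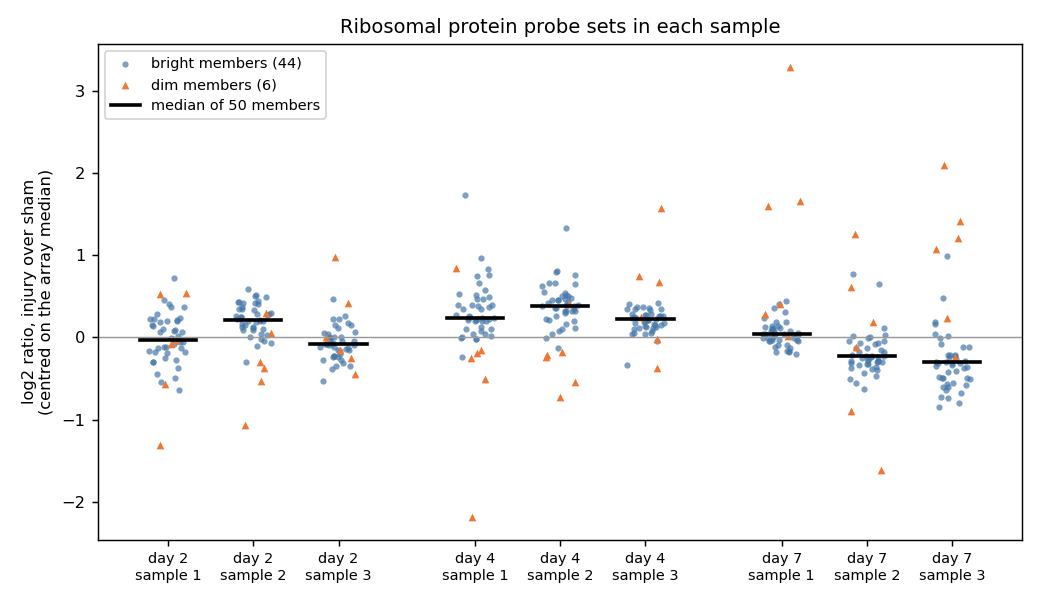
Log2 ratios (y axis, centred on the array median) of the 50 member probe sets in each of the 9 samples (x axis), bright members as circles, dim members as triangles and the median of all 50 as a bar. The median lies between 0.22 and 0.38 in the 3 samples of day 4 and at -0.23 and -0.31 in samples 2 and 3 of day 7, and the dim members scatter far more widely than the bright ones.

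At day 4, the messages of the ribosome lay above sham nearly throughout, by a small amount. Of 50 members, 45 had a mean log2 ratio above 0, against 49.2% of all probe sets. The median was 0.29, a 1.22-fold ratio, against -0.01 over all probe sets. By sample, the median over members was 0.23, 0.38 and 0.22, and 41, 43 and 46 members lay above 0. In 38 members all 3 samples were above 0 (17.1% of all probe sets), and in 1 all 3 were below (16.6%). In the limma fit across 15866 probe sets, 0 members passed an adjusted p of 0.05 at day 4, as did 0% of all probe sets, and the smallest adjusted p of a member was 0.51. At an unadjusted p under 0.05, 15 members were higher and 0 lower, against 4.34% and 3.84% of all probe sets.

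Rps28, a small protein near the site where mRNA leaves the small subunit, had log2 ratios of 0.74, 0.75 and 0.41 in the 3 samples of day 4, a mean of 0.63 ± 0.19 (SD, n = 3) and a 1.55-fold ratio. All of its day 4 samples were above its day 2 samples, which lay at 0.23, 0.21 and 0.14. Rpl35a, a large-subunit protein mutated in some families with Diamond-Blackfan anaemia, had 0.83, 0.80 and 0.18, a mean of 0.60 ± 0.36. Rps29, a zinc-binding protein of the small subunit, had 0.96, 0.66 and 0.15, a mean of 0.59 ± 0.41. In both Rpl35a and Rps29, sample 3 was well below the other samples of the day. Rps3, which sits where mRNA enters the small subunit and also takes part in DNA repair, had 0.49, 0.81 and 0.41, a mean of 0.57 ± 0.21. Rps15, whose tail reaches the decoding centre, had 0.75, 0.51 and 0.28, a mean of 0.51 ± 0.24. These 5 are the members with the highest means among those above 0 in all 3 samples, and none passed.

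The highest day 4 mean of all, 1.00 ± 0.93 for Rpl37a, was named after its values were seen. It rests on samples 1 and 2 at 1.73 and 1.32, while sample 3 was at -0.05. At the other end, Rpl39, a very small protein that lines the exit tunnel, was the 1 member below 0 in all 3 samples, at -0.15, -0.21 and -0.02.

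The members with functions beyond the ribosome's core lay on both sides of the members' day 4 median of 0.29 (quartiles 0.18 and 0.38). Rps3, given above, had a mean of 0.57. Rps6, the substrate of S6 kinase, had 0.22, 0.46 and 0.13, a mean of 0.27 ± 0.17. Rpl5 and Rpl11, which carry 5S RNA into the large subunit and bind Mdm2 when assembly fails, had means of 0.27 ± 0.10 and 0.40 ± 0.17. Rpsa, a small-subunit protein also known as the laminin receptor precursor, had 3 probe sets with day 4 means of 0.25, 0.32 and 0.38. Rplp0, the base of the stalk that recruits elongation factors, had 0.04, 0.21 and 0.12, a mean of 0.12 ± 0.09. Over the 9 samples Rplp0 ranged from -0.05 to 0.21 with an SD of 0.09, the smallest of any member, followed by Rpl6 at 0.19.

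At day 7 the same probe sets lay mostly below sham, with sample 1 standing apart from the other samples. Of 50 members, 9 were above 0 and 41 below, against 49.9% of all probe sets above 0, and the median was -0.16. Without centring the median was -0.08 with 12 above 0, and after a loess of each array on brightness it was -0.03 with 19 above 0. By sample the median over members was 0.04, -0.23 and -0.31, with 31, 9 and 11 members above 0. Without sample 1 the median was -0.27, without sample 2 it was -0.13 and without sample 3 it was -0.09. In 14 members all 3 samples were below 0 (17.2% of all probe sets), and in 3 all were above (16.6%). In the limma fit 0 members passed, against 0.0063% of all probe sets, with a smallest adjusted p of 0.22. At an unadjusted p under 0.05, 3 members were lower and 3 higher, against 4.74% and 6.53% of all probe sets, so single members stood out at about the background rate.

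Among the members below 0 in all 3 samples of day 7, the 5 lowest means belonged to Rpl19, Rpl26, Rpl27, Rps15 and Rpl18. Rpl19, which forms a bridge between the subunits, had -0.20, -0.44 and -0.72, a mean of -0.45 ± 0.26. Rpl26, which lies near the tunnel exit and is known to bind p53 mRNA, had -0.04, -0.63 and -0.49, a mean of -0.39 ± 0.31. Rpl27 had -0.05, -0.22 and -0.85, a mean of -0.38 ± 0.42. In all 3 of these genes sample 1 was the least negative. Rps15 had a mean of -0.34 ± 0.21 and Rpl18 one of -0.33 ± 0.16.

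Of the 3 members above 0 in all samples of day 7, 1 counted among the 44 bright members and the others were dim. The dim probe set of Rps24 had 3.29, 0.18 and 1.42, a mean of 1.63 ± 1.57. That of Rpl39 had 0.40, 1.25 and 1.21, a mean of 0.95 ± 0.48. The weaker probe set of Rpl7, which fell short of the dim class with 3 of 9 samples, had 0.44, 0.77 and 0.99, a mean of 0.73 ± 0.28. None of these passed in the limma fit. Dim probe sets in general had a median of 0.08 at day 7, and 6041 of 10365 were above 0.

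**Figure D2:**
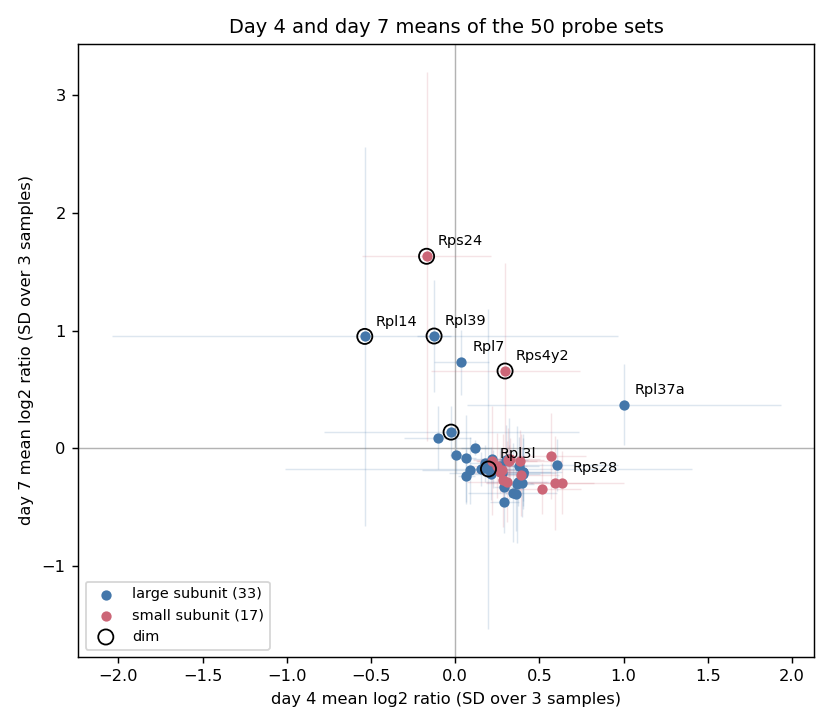
Mean log2 ratio at day 4 (x axis) against day 7 (y axis) for the 50 member probe sets, with the SD over 3 samples as bars, blue for the large and red for the small subunit, and rings around the 6 dim probe sets. Most points form a tight group with day 4 above 0 and day 7 below 0. The dim probe sets of Rps24, Rpl14, Rpl39 and Rps4y2 and the weaker one of Rpl7 lie apart. So does the bright Rpl37a, at 1.00 on day 4 and 0.37 on day 7.

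The difference between days 4 and 7 covered most of the ribosome. Of 50 members, 43 were lower at day 7 than at day 4, against a share above 0 of 50.8% over all probe sets, and the median difference was -0.43 on the log2 scale, or 0.74-fold. In 32 members all 3 samples of day 4 were above all 3 of day 7 (10% of all probe sets), and in 2 the order was the opposite (9.15%). In 13 members all samples of day 4 were above 0 and all of day 7 below 0 (3.94%), and in 1 the signs were the opposite (3.32%). After the loess on brightness described further on, the median difference was -0.25. In the limma fit of the difference 0 members passed, against 0.0063% of all probe sets, and the smallest adjusted p was 0.26. At an unadjusted p under 0.05, 18 members were lower and 3 higher, against 5.31% and 5.78%.

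The widest differences without overlap between the days were those of Rps28, Rps29, Rps15 and Rpl26 downward and Rpl39 upward. Rps28 differed by -0.92 (SE 0.20, limma adjusted p = 0.26), Rps29 by -0.88 (SE 0.29) and Rps15 by -0.86 (SE 0.22), and Rpl26 followed at -0.75 (SE 0.21). None of these passed. Rpl39 differed by 1.08 (SE 0.30, adjusted p = 0.30) in the other direction, from a dim probe set. Rplp0 differed by -0.11 (SE 0.16), which is within its error.

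Both subunits are given side by side. The median difference between day 7 and day 4 was -0.41 for the 33 probe sets of the large subunit and -0.47 for the 17 of the small subunit. In the large subunit 28 of 33 and in the small subunit 15 of 17 were lower at day 7, where 50.8% of all probe sets were higher. The 28 probe sets with several ribosomal symbols, which the choice of members did not use, had a median of 0.39 at day 4 with 28 of 28 above 0 (49.2% of all probe sets), and -0.19 at day 7 with 3 of 28 above 0 (49.9%). In 19 of these 28 the samples of day 4 lay above those of day 7 (10% of all probe sets). They share arrays and, in part, sequence with the members.

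**Figure D3:**
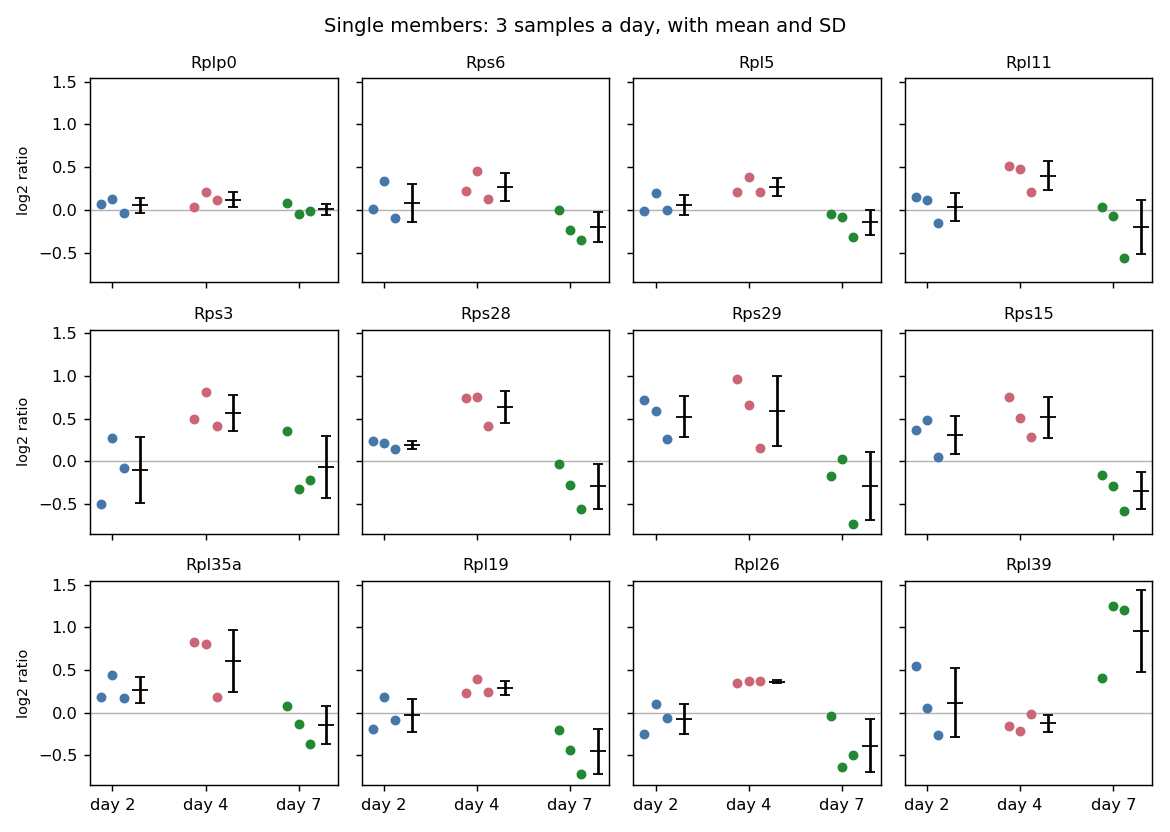
Log2 ratios (y axis) of 12 members in the 3 samples of days 2, 4 and 7 (x axis), with mean and SD beside the points. Rps28, Rps15, Rpl19 and Rpl26 sit above 0 at day 4 and below 0 at day 7, Rplp0 stays within 0.21 of 0, and Rpl39 runs the other way.

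At day 2 the members as a group were close to sham. The median over members was 0.02, with 30 of 50 above 0 (49.9% of all probe sets), and it was -0.04 without sample 2, 0.05 without sample 1 and 0.08 without sample 3. The median was -0.03, 0.20 and -0.08 in samples 1, 2 and 3, with 23, 41 and 16 members above 0. In 6 members all 3 samples were above 0 (13.5% of all probe sets) and in 3 all were below (13.8%). In the limma fit 0 members passed, as did 0% of all probe sets, and at an unadjusted p under 0.05, 1 was higher and 0 lower, against 4.08% and 3.9%.

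The highest means at day 2 belonged to Rps29, with 0.72, 0.59 and 0.26 (mean 0.52 ± 0.24), Rpl27 at 0.37 ± 0.14, Rps15 at 0.30 ± 0.22, Rpl35a at 0.27 ± 0.15 and Rpl6 at 0.25 ± 0.16. Rps29, Rps15 and Rpl35a were among the 5 highest of the members above 0 in all 3 samples both at day 2 and at day 4. The 3 members below 0 in all samples were Rps4y2 at -0.44 ± 0.13, Rpl4, which narrows the exit tunnel, at -0.31 ± 0.25, and Rps16, whose tail reaches the tRNA in the P site, at -0.09 ± 0.12. From day 2 to day 4 the median difference was 0.23, and 43 of 50 members were higher at day 4 (50.9% of all probe sets). In 15 members all samples of day 4 were above those of day 2 (7.15% of all probe sets) and in 0 the order was the opposite (7.18%). The widest such differences were 0.73 for Rps4y2, 0.67 for Rps3, 0.49 for Rpl4, 0.45 for Rpl35 and 0.44 for Rps28, and 0 members passed in limma (0% of all), with 3 higher and 0 lower at an unadjusted p under 0.05 (3.33% and 4.12% of all). From day 2 to day 7 the median difference was -0.21 (-0.11 without sample 2 of day 2, -0.09 without centring and -0.024 after the loess), 14 of 50 members were above 0 (50.3% of all probe sets; 20 without centring and 22 after the loess), and 0 passed (0% of all), with 5 lower and 4 higher at an unadjusted p under 0.05 (3.24% and 4.21% of all). All samples of day 2 were above those of day 7 in 10 members (6.49% of all probe sets) and below them in 2 (6.09%). All samples of day 2 were above 0 and all of day 7 below 0 in 4 members (1.92%), with the opposite signs in 0 (1.82%). Between days 2 and 4, all samples were above 0 at day 4 and below 0 at day 2 in 2 members (1.96%), with the opposite signs in 0 (2.57%).

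Averaged over the 9 samples, the members' median was 0.06, with 37 of 50 above 0 (50.6% of all probe sets). It was 0.02 without sample 1 of day 7 and 0.04 without sample 2 of day 2. In 0 members all 9 samples had the same sign (0.473% of all probe sets were above and 0.655% below 0 in all 9). In limma 0 members passed for this mean (0.0126% of all), with 4 higher and 0 lower at an unadjusted p under 0.05 (4.77% and 4.49% of all). Across samples, sample 2 of day 4 was the highest of the 9 in 21 of the 44 bright members, and sample 3 of day 7 was the lowest in 25 and sample 2 of day 7 in 11.

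For 5 genes the array carries more than 1 probe set, which shows how far a ratio depends on the probes. The bright probe set of Rpl14 had 0.07, 0.20 and 0.37 at day 4, while the dim one had -2.19, -0.17 and 0.75. Rps24 at day 7 had a mean of -0.27 ± 0.40 from its bright probe set and 1.63 ± 1.57 from its dim one. Rpl7 at day 7 had -0.10 ± 0.29 from the brighter and 0.73 ± 0.28 from the weaker probe set. In each of these 3 genes the bright probe set resembled the other bright members and the weaker one had the opposite sign at day 7. The 3 probe sets of Rpsa kept together, at -0.15, -0.11 and -0.11 at day 7, and so did those of Rpl7l1 within their spread, at -0.10 and 0.07 at day 4. The array's annotation ties these probe sets to 1 gene, and which part of the message each reads was not analysed here.

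**Figure D4:**
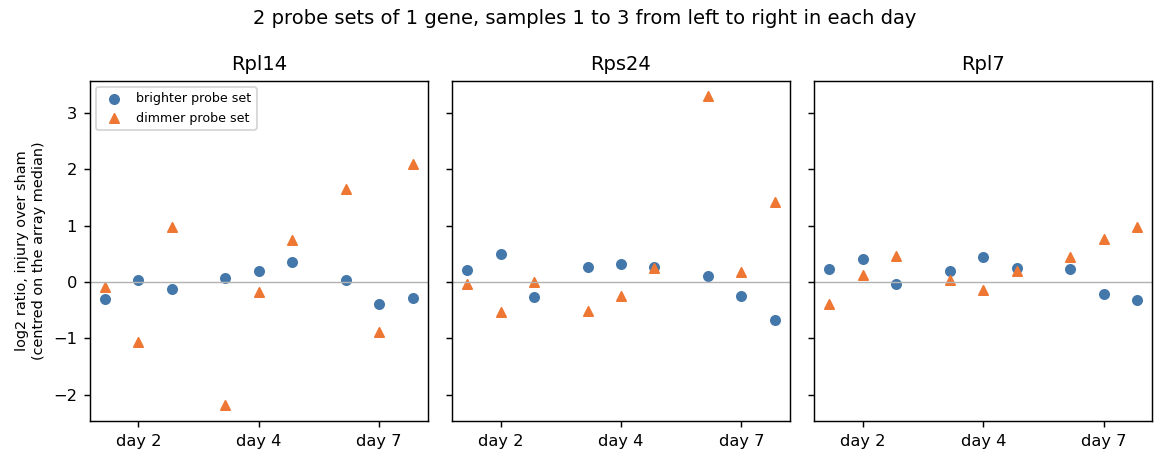
Log2 ratios (y axis) of the brighter probe set (circles) and the dimmer one (triangles) of Rpl14, Rps24 and Rpl7 in the 9 samples (x axis, samples 1 to 3 from left to right within a day). The brighter probe sets stay between -0.68 and 0.50, and the dimmer ones reach from -2.19 to 3.29.

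Paralogs, named for their role whatever their values, are given next. Rps27l, a relative of Rps27 known as a p53 target, had a day 4 mean of 0.22 ± 0.10 and a day 7 mean of -0.10 ± 0.46. Rpl7l1, a relative of Rpl7 that acts in ribosome assembly, had day 7 means of 0.09 ± 0.27 and -0.08 ± 0.37. Rpl3l, the striated muscle form of Rpl3, was a dim member, and its ratios ran from -1.62 to 1.57 over the 9 samples. The weaker Rpl14 and Rps24 probe sets had the largest SD over the 9 samples, at 1.38 and 1.22.

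Other parts of the translation machinery had medians closer to 0 at day 4 than the ribosomal proteins, and in the lists that follow 0 probe sets passed in limma at day 2, 4 or 7. Translation elongation factors (12 probe sets) had medians of 0.09 at day 4 and -0.02 at day 7, and initiation factors (39) of 0.06 and -0.07. The other TOP messages (19 probe sets), which begin with the same tract, had 0.05 and -0.12, with 10 of 19 above 0 at day 4. Ribosome biogenesis factors (57), which build the subunits in the nucleolus, had -0.01 and 0.01, with 28 of 57 above 0 at day 4. Regulators around mTOR, S6 kinase and Myc (44) had -0.04 and -0.09. The TOP list was drawn up with genes that are also in the elongation, initiation and biogenesis lists, so these lists are not separate from it. The 2 probe sets of each list with the largest absolute mean over the 9 samples are given here. They were Eef2k at 0.47 and 0.37 for elongation, and Eif4e at 0.54 and Eif4g1 at 0.37 for initiation. For the TOP messages they were Nap1l1 at 0.46 and Eef1b2 at 0.21. For biogenesis they were Gar1 at -0.70 and Rrs1 at -0.60, and for the regulators Mdm2 at 0.84 and Rps6ka6 at -0.59. Of these named probe sets, all but those of Eif4g1 and Eef1b2 were dim. In the whole lists, 33 of 57 biogenesis and 24 of 44 regulator probe sets were dim as well. Some of these means hide a change of sign between days. Mdm2 had 2.00, -1.15 and 1.68 at days 2, 4 and 7, and Eif4g1 had 1.01, -0.61 and 0.70.

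A few groups outside cytosolic translation had medians of the same sign as the members on both days. The mitochondrial ribosomal proteins (82 probe sets) had a median of 0.24 at day 4 and -0.14 at day 7, with a median difference of -0.43, and 75 of 82 were lower at day 7. The mitochondrial respiratory chain (84) had 0.31 and -0.26, with a difference of -0.62 and 77 of 84 lower. Proteasome genes (35) had 0.21 and -0.15, with a difference of -0.27 and 31 of 35 lower. The largest absolute means over the 9 samples were Mrpl14 at -0.41 and Mrpl2 at 0.36 for the mitochondrial ribosome. For the respiratory chain they were the 2 probe sets of Atp5if1 at 2.85 and 1.52. For the proteasome they were Psmb10 at 0.25 and Psmd11 at -0.20, and none of these passed. Both Atp5if1 probe sets were dim and lay above 0 on each day, at 2.73 and 1.07 at day 7, unlike the median of their list. Mrpl14 had -0.40, 0.23 and -1.07 at days 2, 4 and 7. Median differences between days 4 and 7 of the members' sign and of similar size were thus also seen outside the cytosolic ribosome.

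**Figure D5:**
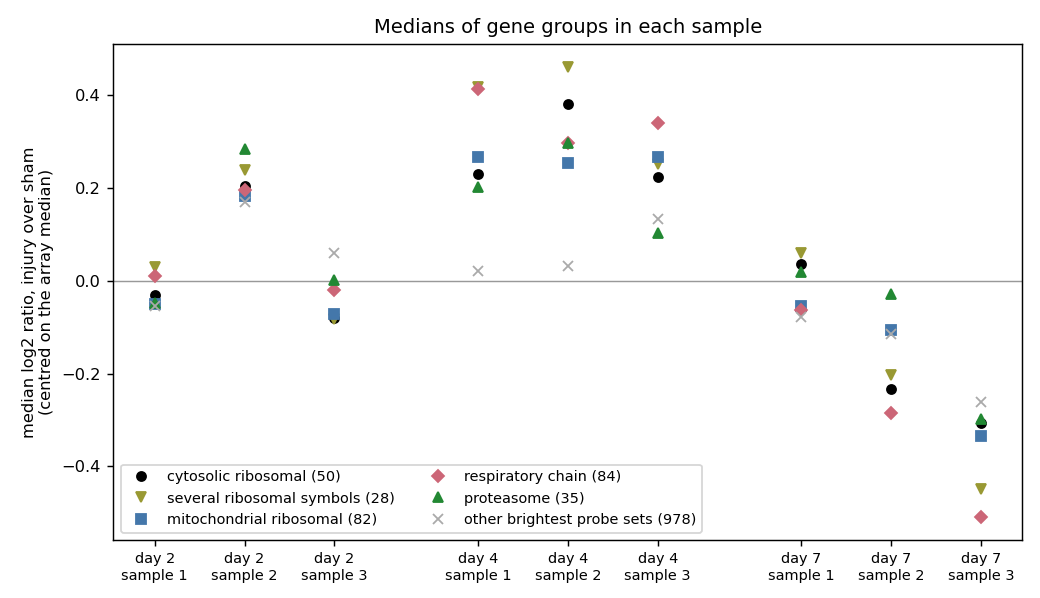
Median log2 ratio (y axis, centred on the array median) of 6 groups of probe sets in each of the 9 samples (x axis), with the number of probe sets in the legend. In samples 2 and 3 of day 7 all 6 medians lie below 0, while at day 4 the cytosolic ribosomal, mitochondrial ribosomal and respiratory chain medians lie above that of the other brightest probe sets, which is between 0.02 and 0.13.

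Signal strength, message integrity and other cell types moved with these ratios in part, and their share in the result was not tested. The other 978 probe sets beyond the range of the search had medians of 0.06 at day 4 and -0.17 at day 7, the latter close to the members' -0.16. After a loess fit of each array on brightness, the members' median was 0.21 at day 4 (44 of 50 above 0), -0.03 at day 7 (31 of 50 below 0) and -0.25 for the difference. The day 2 median after that fit was -0.02, with 23 of 50 above 0, and without any centring it was -0.01 with 23 above 0. On the control probe sets, the actin probe set at the 3′ end stood relative to that at the 5′ end at -0.79, -0.31 and -0.06 at day 2, -0.35, 0.38 and 0.23 at day 4 and -0.88, -0.44 and -0.88 at day 7, and for GAPDH this was -0.42, -0.19 and 0.11, then 0.14, 0.31 and -0.08, then -0.39, -0.21 and -0.80. On average both were highest at day 4 and lowest at day 7, as were the members. In bulk RNA, fewer cells of a type and less RNA per cell cannot be told apart.

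Hepatocyte markers were beyond the range of the search in 20 of 22 probe sets, and their medians were 0.12, -0.07 and -0.13 at days 2, 4 and 7, with 19, 7 and 5 of 22 above 0. Exocrine pancreas markers were dim in 16 of 17 and had a median of 1.44 at day 4 (17 of 17 above 0; 0.10, 2.90 and 1.38 by sample) and 0.08 at day 7. Medians at days 4 and 7 were 0.63 and 0.29 for red cells (5 probe sets, 5 above 0 on both days), 0.22 and -0.03 for macrophages (12 and 6 of 13), 0.39 and 1.27 for neutrophils (4 and 4 of 5) and -0.15 and 0.21 for lymphocytes (3 and 8 of 12). They were -0.07 and -0.22 for stellate cells and fibroblasts (4 and 3 of 12), -0.14 and -0.39 for endothelium (2 and 0 of 5), -0.19 and -0.08 for skeletal muscle (5 and 5 of 12) and -0.54 and -0.28 for cholangiocytes (0 and 0 of 4). The members' medians in the 3 samples of day 4 were 0.23, 0.38 and 0.22. Sample 2 was also the highest for exocrine pancreas and for macrophages (0.15, 0.52 and 0.11). The same held for stellate cells and fibroblasts (-0.07, 0.11 and -0.30) and cholangiocytes (-1.21, -0.11 and -0.16), but not for the other cell type marker lists. Whether these are linked to the members' ratios was not tested.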

How the data were processed

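The files hold log2 ratios that the authors deposited, 1 per probe set and sample, from Affymetrix RAE230A arrays. Not given in the sources used here are scaling, software and the order of the ratio. Of 15923 probe sets, 57 controls were left out. Symbols came from the platform annotation (12783 probe sets with 1 symbol, 312 with several, 2771 with none). Each array was centred on its median (between -0.13 and 0.16 before centring). Day means over 9 samples were fitted by lmFit and eBayes (limma 3.58.1 under R 4.3.3; 6 residual degrees of freedom, Benjamini-Hochberg over all 15866 probe sets, threshold 0.05), tested on simulated data first. Whole-number signals were searched by continued fractions (tolerance 1e-09, cap 20000). Brightness is the median log2 of the smaller number, with probe sets not recovered set to the cap. At numbers up to 3000, ratios shifted at random were recovered in 0.2135% to 0.314% of cases, and at the cap of 20000 in 11.77% to 13.09%, so brightness above 3000 is less certain. Members, lists and tests were chosen with earlier results of these data known. Named members are, by rule, the 5 highest and 5 lowest per day with 1 sign in 3 samples, the 5 widest differences from day 2 to 4 and from 4 to 7 without overlap, the members with roles of their own and paralogs, and the 2 largest and 2 smallest SDs. Named genes of other lists have the 2 largest absolute means. For arrays, their number limits the precision. Promoter windows are from RefSeq (GRCr8). No replicate pairing was found: same-numbered samples of different days had correlations of their deviations between -0.0309 and 0.0546. Over all 36 pairs of the 9 samples, the correlation of the centred ratios across probe sets ran from -0.10 to 0.15. Samples of the same day are among these pairs, so they resembled each other only weakly across all probe sets.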

Additional observations from a re-analysis of the deposited data

Results flagged for a closer look

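In the members below, all 3 samples of a day lay above 0 and all 3 of another day below 0, which was not tested beyond the adjusted p of the difference, none passing. Over all probe sets, 3.94% had day 4 above and day 7 below 0, and 3.32% the opposite. From day 4 to day 7 the log2 differences were -0.72 for Rpl27, -0.32 for Rpl6, -0.47 for Rps6, -0.74 for Rpl19, -0.62 for Rpl18 and -0.32 for Rpl7a. They were -0.66 for Rpl23a, -0.40 for Rpl27a, -0.30 for Rpl12, -0.86 for Rps15, -0.75 for Rpl26, -0.92 for Rps28 and -0.41 for Rpl5. Rpl39 alone among the members split in the other direction, at 1.08. From day 2 to day 7, where 1.92% of all probe sets had day 2 above and day 7 below 0, the differences were -0.74 for Rpl27, -0.34 for Rpl6, -0.65 for Rps15 and -0.49 for Rps28. From day 2 to day 4, where 1.96% had day 4 above and day 2 below 0, they were 0.42 for Rps16 and 0.49 for Rpl4.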

How the results depend on the processing

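The number of members called was 0 in each of the 7 comparisons under each alternative run, among them no centring, a variance trend, array weights, gene averages, the replicate block and each sample left out. Over these fits the smallest adjusted p of a member was 0.0665, for day 7 minus day 4 with the variance trend. In that fit 32 of 50 members had an unadjusted p under 0.05 in either direction, against 12.7% of all probe sets. At day 4 it was 25 of 50, against 9.8%. After the loess on brightness these limma counts were 9 of 50 for day 7 minus day 4 (10.4% of all probe sets) and 8 of 50 at day 4 (8.38%). Without centring they were 14 (11.8%) and 13 (8.46%), and with the replicate block 19 (10.8%) and 13 (7.73%). The members' median moved by more than the spread between samples under the loess on brightness (chosen after seeing the data, with unrecovered probe sets set to the cap since leaving them out removes most members), to -0.25 for day 7 minus day 4 and -0.024 for day 7 minus day 2. With single samples left out it ran from 0.24 to 0.33 at day 4, from -0.27 to -0.09 at day 7, from -0.54 to -0.39 for day 7 minus day 4 from -0.04 to 0.08 at day 2, from 0.17 to 0.34 for day 4 minus day 2, from -0.31 to -0.11 for day 7 minus day 2 and from 0.02 to 0.09 for the mean. Over all probe sets, calls numbered 0 at day 7, 0 for the mean and 0 for day 7 minus day 4 without centring and with the replicate block. The variance trend gave 17 at day 2, 1 at day 4, 9 at day 7, 49 for the mean and 3 for day 7 minus day 4. With day 1 in the fit they were 1 at day 4, 3 at day 7, 12 for the mean, 1 for day 4 minus day 2 and 0 for day 7 minus day 4. Because day 1 identifiers do not stand for the same probe sets, the spread in that fit mixes unrelated probe sets. Its calls and p-values are therefore not valid. Gene averages gave 0 at day 7, 4 for the mean and 0 for day 7 minus day 4, and leaving out the dimmest probe sets 0, 10 and 0. Leaving out single samples gave 0 to 1 at day 2, 0 to 12 at day 7, 0 to 1 for the mean, 0 to 1 for day 4 minus day 2, 0 to 6 for day 7 minus day 4 and 0 to 1 for day 7 minus day 2, with the 12 and the 6 both from leaving out sample 2 of day 7. The planned loess without unrecovered probe sets was not run. The cause of these differences was not tested. The replicate block changed no call of a member. The dim members, whose signals limit them, had the widest spread.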
